A study of Mus musculus with 55 samples.

Results

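Across all genes measured on 2 oligonucleotide array sets, large pre-BII cells were set against the stage before them in B cell development, pre-BI cells. The comparison takes every array titled as one of these populations, 23 of the 55 arrays deposited. They hold 11 of the 26 preparations: 6 of pre-BI cells (sorts 1, 2, 3, 8, 9 and 10) and 5 of large pre-BII cells (sorts 1, 2, 8, 9 and 10). Both populations were sorted from mouse bone marrow, the pre-BI population by B220 and c-kit, the large pre-BII population by B220 and CD25 in the absence of surface immunoglobulin. The labels give no treatment and no difference in genotype between them, and strain and age are not given in the sources used here. The other populations, small pre-BII, immature and mature B cells, enter the fit for their spread only. The labels do not say that sorts were separate animals, so p-values measure the spread between sorts, which may be technical.

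A pre-BI cell has rearranged its heavy chain locus in part and makes the surrogate light chain, the VpreB and lambda5 proteins that stand in for a light chain. Once a functional mu heavy chain is made, it pairs with the surrogate light chain and the CD79 proteins to form the pre-B cell receptor (pre-BCR). Cells that carry this receptor are selected, divide several times as large pre-BII cells, shut down the surrogate light chain and terminal transferase, and then rest as small pre-BII cells and rearrange a light chain.

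Values below are normalised intensities per probe set. A noise limit for each array set, 251 on the first and 319 on the b set, was taken from its negative values, and folds and log2 differences of single genes are between means of levels raised to that limit. Where the dimmer population was under the limit in all its preparations, the fold is a bound, written "at least". limma gave the tests, with Benjamini-Hochberg adjustment across the probe sets tested on both array sets, and "rose" and "fell" are used for an adjusted p under 0.05. Negative intensities made up 21.6 to 27.8% of a first-set array and 35.4 to 42.1% of a b-set array, and 20.1% of b-set values exceeded the limit. Array sensitivity and the number of arrays limit the precision. These are bulk preparations, so fewer cells of a type and less RNA per cell cannot be told apart.

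Between the populations 191 of 10229 probe sets changed, which is 1.87% of those tested: 89 were higher in large pre-BII cells (0.87%) and 102 were lower (0.997%). They stood for 144 of 5027 genes (2.86%), of which 57 rose (1.13%) and 87 fell (1.73%). These shares of all genes are the background for the counts of the gene lists below. No gene had probe sets called in both directions. The median log2 difference over all tested genes was -0.00. The median fold was 2.37 among called probe sets that were higher and 2.35 among those that were lower, where both sides were measured. On the b set, whose floor lies far below its noise limit, 1.15% of probe sets were called, against 2.61% on the first set.

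Preparations of the populations did not overlap for 141 of the 191 probe sets, against 288 of all 10229 (2.82%, of which 1.42% higher and 1.4% lower). The 191 were called on these same preparations, so this share and the next follow in part from that choice. In 180 of the 191 the difference had 1 direction in all 5 pairs of equal sort number, against 11.6% of all probe sets. A fit with sort number as a block, which these pairs allow, called 327 probe sets (3.2% of those tested), 147 higher (1.44%) and 180 lower (1.76%). In genes these were 4.91% of those tested, 1.95% higher and 2.96% lower, and 190 of the 191 calls were shared. With the floor set at the noise limit, 286 of 5310 probe sets were called (5.39%; 2.75% higher and 2.64% lower), and 6.54% of genes, 3.04% higher and 3.5% lower. Of the 144 genes, 90 passed in every one of 11 fits that each left out 1 of the 11 preparations, and 32 failed in over 5 of them. An 18S ribosomal RNA control read 7859 to 14192 on arrays of sorts 1 to 3 and -339 to 194 on those of sorts 8 to 10. All 144 genes had the same sign within sorts 1 to 3 and within sorts 8 to 11, although these smaller fits called only 8 and 78 probe sets. The genes were called on all these sorts together, so the shared sign is no independent support.

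**Figure D1:**
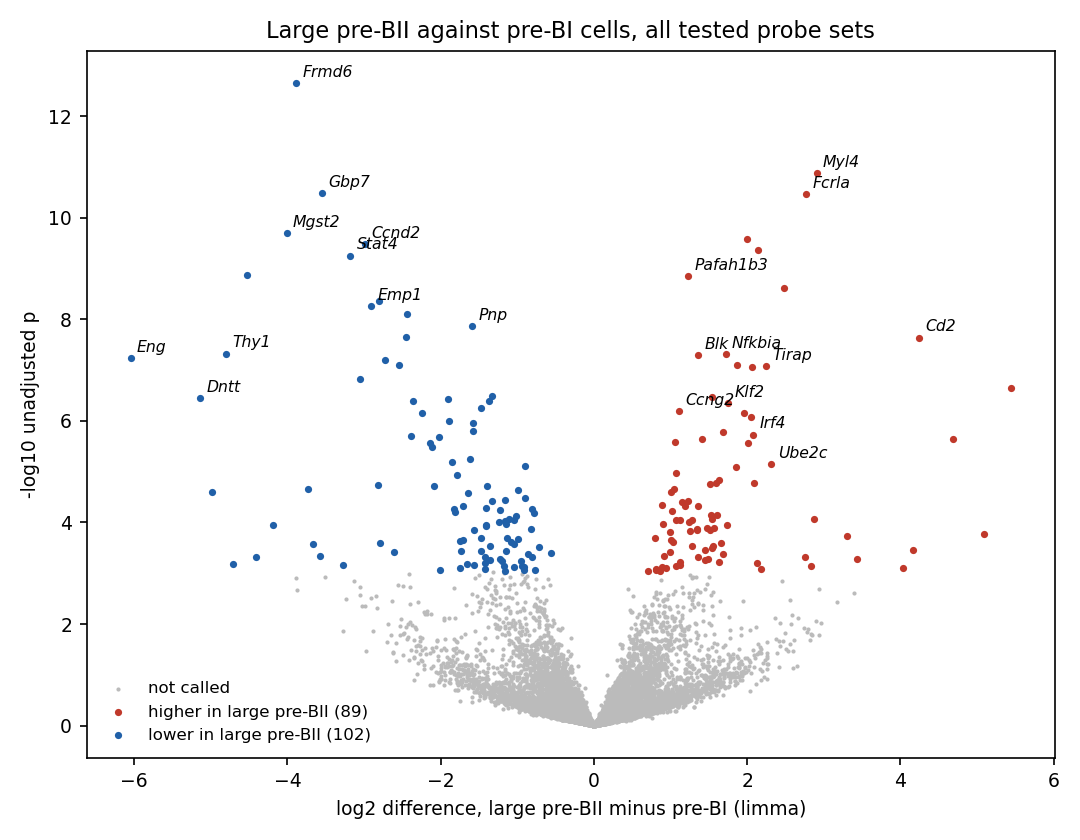
Each point is a probe set: the x axis is the limma log2 difference, large pre-BII minus pre-BI, and the y axis is -log10 of the unadjusted p. The 89 red points are higher and the 102 blue points lower at an adjusted p under 0.05, grey points are not called, and the fitted differences of dim b-set probe sets, such as Eng and Cd2, are wider than those between levels raised to the noise limit.

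Ptprc, the gene of the B220 antigen used in both gates, lay at 2928 ± 669.6 (SD, n = 6) in pre-BI cells and 2745 ± 434 (SD, n = 5) in large pre-BII cells and did not pass (adjusted p = 0.983). Kit, the stem cell factor receptor of the pre-BI gate, exceeded the noise limit in 2 of 6 pre-BI preparations and in 0 of 5 large pre-BII preparations (adjusted p = 0.412). Il2ra, which encodes CD25, was under the limit in all 11 preparations, so the CD25 gate could not be checked at the RNA level. Among B lineage genes, Cd79a, Cd79b, Ebf1 and Cd93 exceeded the limit in all 11 preparations, while Pax5 did so in 1. Mki67, a marker of dividing cells, was bright in both populations, at 8248 ± 2404 and 12604 ± 1375, without passing (adjusted p = 0.142).

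The stage markers separated the populations. Dntt, the terminal transferase, which lengthens heavy chain joints without a template, measured 7592 to 8474 (median 7998) in pre-BI cells and 215, 326, 498, 350.3 and 50.7 in large pre-BII sorts 1, 2, 8, 9 and 10. Every pre-BI preparation was far above every large pre-BII one, and 2 of the latter were under the noise limit. The difference was 22.5-fold (log2 -4.49 ± 0.13 SE, adjusted p = 0.000114). A second Dntt probe set averaged 763 and 126 without passing (adjusted p = 0.124). Myl4, an alkali light chain of myosin, was 433 to 949 (median 575) in pre-BI cells and 5659, 4171, 4201, 3405 and 5247 in large pre-BII cells, a rise of 7.5-fold (log2 2.91 ± 0.23 SE, adjusted p = 6.75e-08) without overlap.

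Surrogate light chain genes fell. Vpreb1, which encodes the V-like chain of the surrogate light chain, lay at 3634 to 5733 (median 4394) in pre-BI cells and at 765, 1064, 962, 799 and 331 in large pre-BII cells (6.12-fold, adjusted p = 0.0273). Igll1, which encodes the lambda5 chain, ranged widely in pre-BI cells, from 1225 to 6162 (median 2839), and measured 385, 67.1, 858, 703 and 130.5 in large pre-BII cells (5.93-fold, adjusted p = 0.042). The populations did not overlap for either gene, but the pre-BI preparations of sorts 1 to 3 were all dimmer for Igll1 than those of sorts 8 to 10. Iglc1, the lambda1 constant region gene, also fell, from 899 ± 253 to 323 ± 91.6 (2.73-fold, adjusted p = 0.000152). Of the 7 tested chains of the pre-BCR and BCR these 3 fell (1.73% of all genes did) and none rose, with a median log2 difference of -0.28. The other named chains did not pass: Ighm, the mu heavy chain, at 10079.8 ± 1707 and 12638 ± 818 (adjusted p = 0.377), Cd79b at 4666 ± 1939 and 6072 ± 559 (adjusted p = 0.363), and Vpreb3 at 7275 ± 1163 and 7308 ± 1710.4 (adjusted p = 1). When single preparations were left out, the call held in the following number of 11 fits: Igll1 in 3 (kept only without pre-BI sort 3 or large pre-BII sorts 8 and 9, and the highest adjusted p was 0.161, without large pre-BII sort 2) and Vpreb1 in 6 (lost without pre-BI sorts 1 and 8 or large pre-BII sorts 1, 9 and 10, and the highest adjusted p was 0.104, without large pre-BII sort 10).

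Of 8 tested genes of V(D)J recombination and end joining, Dntt alone passed (1.73% of all genes fell). Rag1, a recombinase subunit, was 1249.8 to 3737 in pre-BI and 762 to 2202 in large pre-BII cells, which did not pass (adjusted p = 0.166) except with sort number as a block, where it fell. Hmgb1, a DNA-bending cofactor of the recombinase, lay at 11527 ± 1277 and 13256 ± 1703 (adjusted p = 0.823). Hmgb2, its close relative, was 2939 to 6219 and 6090.1 to 12599.8, overlapping only at the edge and not called (adjusted p = 0.833).

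**Figure D2:**
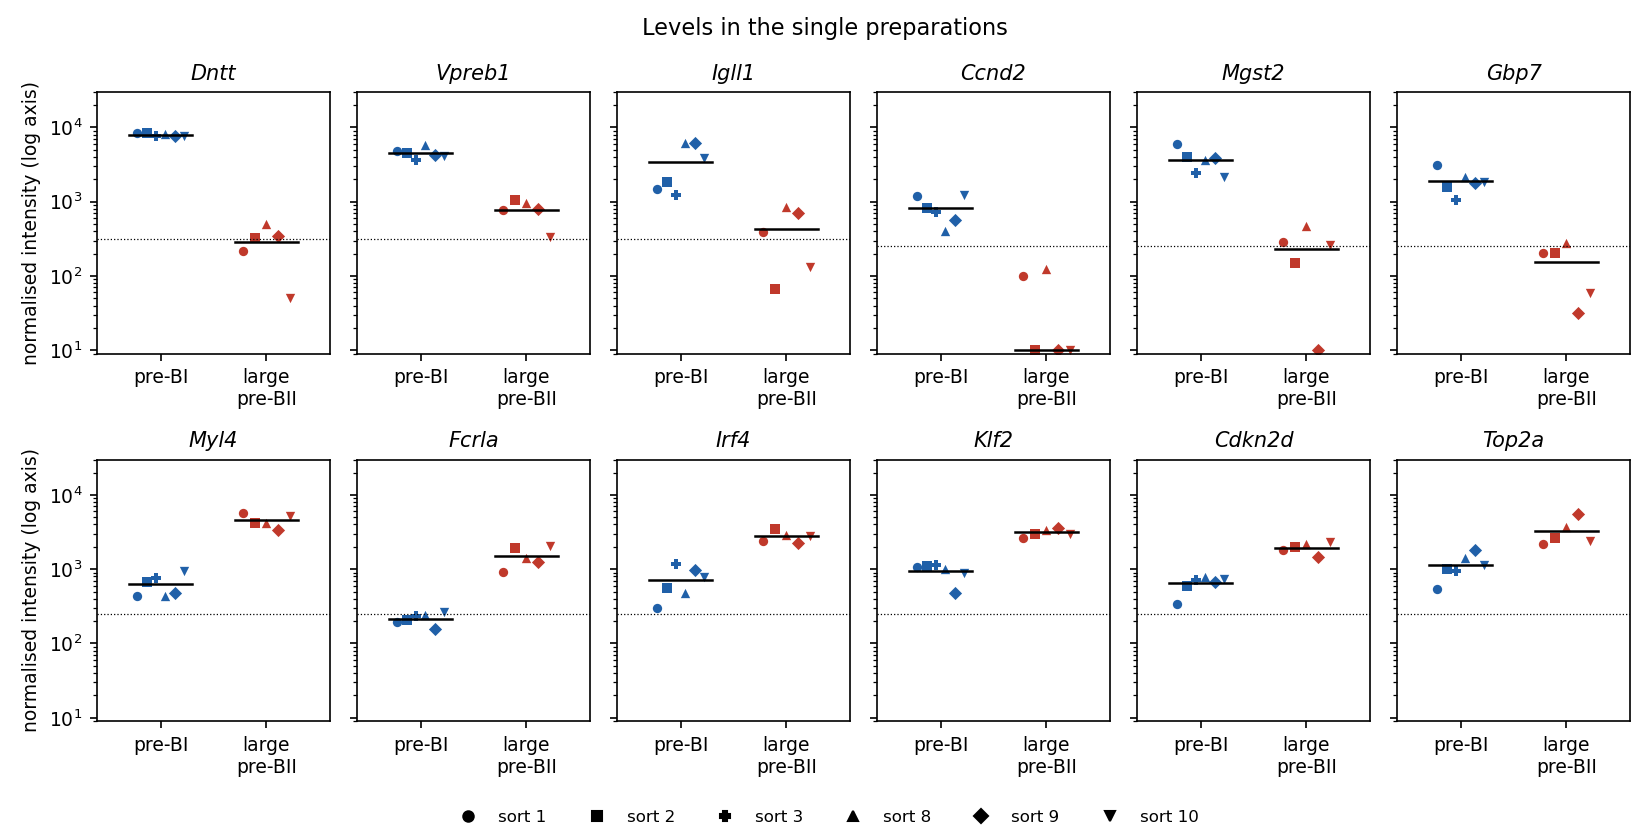
Normalised intensity of 12 genes in each preparation (log axis, values under 10 drawn at 10), by sort number, with a line at each population mean and a dotted line at the noise limit. The upper genes fell and the lower genes rose, and in all 12 the preparations of the populations do not overlap.

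Next to the receptor 2 kinases rose. Blk, a Src family kinase of B cells, measured 1569 to 3015 (median 2556) in pre-BI cells and 4836, 6551, 5892, 6141 and 5859 in large pre-BII cells (2.57-fold, log2 1.36 ± 0.18 SE, adjusted p = 2.51e-05). Syk, the kinase recruited by phosphorylated CD79 tails, was 2087 to 6359 (median 3316) and 6948, 10091, 5966, 6359 and 7257 (2.02-fold, log2 1.01 ± 0.28 SE, adjusted p = 0.00355). Blk did not overlap between populations, while the lowest Syk preparations of large pre-BII cells lay within the pre-BI range. Of 16 tested genes of receptor-proximal signalling these 2 rose (1.13% of all genes did) and none fell, and the median of the list was -0.00. Adaptors and other kinases of the list did not pass: Grb2 was 1639 ± 183 and 1609 ± 235 (adjusted p = 0.994), Prkcd 1926 ± 515 and 1849 ± 252 (adjusted p = 0.992), and Vav1 1182 to 2361 and 924 to 1525 (adjusted p = 0.123).

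Among 18 receptor inhibitors and phosphatases 1 rose and 1 fell (1.13% and 1.73% over all genes), with a median of 0.15. Fcrla, an intracellular Fc receptor-like protein of B cells, was under the limit in 5 of 6 pre-BI preparations, 158 to 265 (median 219.7), and measured 927, 1912, 1419, 1259 and 2043 in large pre-BII cells (5.73-fold, log2 2.52 ± 0.21 SE, adjusted p = 8.92e-08). Every large pre-BII preparation was above every pre-BI one. Inpp5d, the SHIP1 phosphatase that removes a phosphate from PIP3, fell from 2597 ± 870.4 to 1133 ± 224 (2.2-fold, adjusted p = 0.0168). Its call held in 8 of 11 leave-one-out fits (lost without pre-BI sorts 3 and 9 or large pre-BII sort 10, and the highest adjusted p was 0.0667, without large pre-BII sort 10). With sort number as a block, where 1.95% of all genes rose, 4 of the 18 did, Cd72, Csk and Rgs2 beside Fcrla, each by at least 1 probe set. Without it Csk, which restrains Src kinases, stood at 5911 ± 1836 and 8890.1 ± 1735 (adjusted p = 0.244) and Ptpn6, the SHP1 phosphatase, at 1387 ± 406 and 1216 ± 321 (adjusted p = 0.959).

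The IL-7 and cytokine receptor list held feedback inhibitors that went opposite ways. Socs2 fell from 509.6 ± 248 to 103 ± 124 (1.88-fold, adjusted p = 0.00194), and Socs1, an inhibitor of Janus kinases, rose from -92.1 to 264, where 1 preparation exceeded the limit, to 588, 566, 331, 469 and 833 (2.1-fold, adjusted p = 0.0393). The Socs1 call held in 2 of 11 leave-one-out fits (kept only without pre-BI sort 2 or large pre-BII sort 8, and the highest adjusted p was 0.117, without large pre-BII sort 10) and was lost with the floor at the noise limit (adjusted p = 0.0768). The other 22 of 24 tested genes did not pass (1.13% of all genes rose and 1.73% fell). The median was -0.22, or 0 on levels raised to the limit. Pim1, a survival kinase induced by cytokines, was 666 to 2745 and 1145 to 3124 (adjusted p = 0.833), and the chemokine receptor Cxcr4 602 to 3803 and 1035 to 5053 (adjusted p = 0.958), and for both the ranges overlap widely.

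Genes of stem cells and early progenitors leaned lower: 3 of 28 fell (1.73% of all genes did), none rose, 23 of 28 differences were negative (49.5% of all genes had a positive one), and the median was -0.64 (-0.14 on levels raised to the limit) beside -0.00 over all genes. Eng, endoglin, an accessory receptor for TGF-beta family ligands, measured 709 to 1626 (median 986) in pre-BI cells and was under the limit in all 5 large pre-BII preparations, an at least 3.33-fold fall (adjusted p = 2.73e-05). Thy1, a surface glycoprotein of early progenitors and T cells, exceeded the limit in part of the pre-BI preparations only (110.5 to 569 against -305 to 33.9, adjusted p = 2.51e-05), which gives no usable fold. Meis1, a homeobox gene of stem cells, fell from 177 to 489.9 to 23.1 to 209, at least 1.37-fold (adjusted p = 0.039). The Meis1 call held in 3 of 11 leave-one-out fits (kept only without pre-BI sort 1 or large pre-BII sorts 1 and 9, and the highest adjusted p was 0.123, without large pre-BII sort 8) and was lost with sort number as a block (adjusted p = 0.0531). By contrast Cd93, the receptor recognised by an early B lineage antibody, did not pass (9128 ± 2124 and 7679 ± 269.8, adjusted p = 0.925).

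Of 13 tested markers of T and NK cells, Gzma, a granzyme, and Thy1, which is also in the stem and progenitor list, fell (1.73% of all genes did) and none rose. The list's median was -0.09 (0 on levels raised to the limit), with 5 differences positive and 8 negative. Gzma went from 836 to 2416 (median 1105) to 297, 267, 431, 415 and 356 (3.38-fold, adjusted p = 0.00653) without overlap. The summed level of the list was 1664 to 4050 in pre-BI and 1044 to 1736 in large pre-BII preparations. Of the 15 markers on the arrays 9 were never over the limit in these preparations, Cd3d, Cd3g, Cd4, Cd8a and Zap70 among them. Cd3e went the other way, with means of 3.88 and 241, and did not pass (adjusted p = 0.509). It exceeded the limit in 0 of 6 pre-BI and 2 of 5 large pre-BII preparations. The part of such cells in the falls of Thy1 and Gzma was not tested.

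Of 24 transcription factors of the B lineage 3 rose and 1 fell (1.13% and 1.73% over all genes), with a median of -0.07. Irf4, an interferon regulatory factor that acts in light chain gene activation, rose from 302 to 1179 (median 673) in pre-BI cells to 2390, 3525, 2850.3, 2266 and 2808 in large pre-BII cells (4.24-fold, log2 2.08 ± 0.31 SE, adjusted p = 0.000416). Irf8, the family member that binds many of the same sites, fell from 913 to 2457 (median 1434) to 631, 747, 613, 588 and 674 (2.24-fold, log2 -1.16 ± 0.20 SE, adjusted p = 0.0048). Neither overlapped between populations, so the 2 related factors crossed: each pre-BI preparation was below each large pre-BII one for Irf4 and above it for Irf8. Plasma cells are known to express Irf4 too. The 5 plasma cell markers summed to 771 to 2003 in pre-BI and 2776 to 3987 in large pre-BII preparations, a sum that includes Irf4 itself (means 711 and 2768). Irf4 was the 1 called and Sdc1 was never over the limit. Xbp1 (means 201 and 176), Prdm1 (161 and 91.8) and Jchain (146 and 177) had means under the limit in both populations. The part of such cells in the rise of Irf4 was not tested.

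Klf2, a zinc finger factor of lymphocyte quiescence and homing, rose from 483 to 1149.6 (median 1047) to 2629.9, 3015, 3397, 3633 and 2957 (3.37-fold, log2 1.75 ± 0.21 SE, adjusted p = 0.000125). The lowest value is pre-BI sort 9, which stood apart from the other pre-BI preparations. Tcf12, an E protein partner of E2A, rose from 906 ± 191 to 1796 ± 344 (1.99-fold, adjusted p = 0.0271), with the call kept in 6 of 11 leave-one-out fits (lost without pre-BI sorts 8 and 10 or large pre-BII sorts 1, 8 and 10, and the highest adjusted p was 0.0901, without large pre-BII sort 8). Pou2af1, the coactivator OBF1, was 2601 ± 823 and 4392 ± 1247 and passed only with sort number as a block (adjusted p = 0.169 without it). Ets1 (2128 ± 836 and 1629 ± 408, adjusted p = 0.872) and Mef2d (2249 ± 729.8 and 2060.1 ± 420.1, adjusted p = 0.987) did not pass.

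The cell cycle genes did not move as 1 block. At the entry to the cycle, Ccnd2, cyclin D2, measured 407 to 1217 (median 768) in pre-BI cells and was under the limit in all 5 large pre-BII preparations (99.5, -87.5, 126, -99.4 and -7.89), an at least 3.04-fold fall (adjusted p = 4.88e-07). Ccnd3, the cyclin D gene needed for pre-B cell division, stayed bright and did not pass (6180 ± 1387 and 5863 ± 1146, adjusted p = 0.989). Rb1, the retinoblastoma pocket protein that the D cyclin kinases phosphorylate, rose from 341 ± 89.6 to 822 ± 253 (2.34-fold, adjusted p = 0.0128). Its call held in 9 of 11 leave-one-out fits (lost without large pre-BII sorts 1 and 8, and the highest adjusted p was 0.0622, without large pre-BII sort 8). Ccnd2 and Rb1 were the 2 calls among 17 tested D cyclin, Cdk4 and pocket protein genes, whose median was -0.06. Of all genes 1.13% rose and 1.73% fell. Cdk4 itself spanned 2471 to 8900.2 and 2147 to 5331 (adjusted p = 0.83).

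Genes that brake the cycle leaned higher: of 20 tested, 3 rose (1.13% of all genes did) and none fell. Of the 20 differences 16 were positive, against 49.5% over all genes, and the median was 0.33 (0.11 on levels raised to the limit). Cdkn2d, the p19 inhibitor of Cdk4 and Cdk6, rose from 341 to 789 (median 701) to 1790.1, 1985, 2165, 1476 and 2345 (3.09-fold, log2 1.63 ± 0.22 SE, adjusted p = 0.00237). Ccng2, an atypical cyclin associated with arrest, rose from 998 to 1507 (median 1074) to 3046, 2476, 2466, 2112 and 2286 (2.16-fold, adjusted p = 0.000172). The third is Klf2, given above, and no preparations overlapped for the 3 genes. Btg1 and Btg2, antiproliferative genes of resting lymphocytes, were 893 ± 105 and 1304 ± 363 (adjusted p = 0.526) and 1629.5 ± 416 and 2354 ± 529 (adjusted p = 0.256), and Btg1 rose by at least 1 probe set with sort number as a block.

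None of 13 tested origin licensing genes and none of 20 replication fork genes was called, with medians of 0.36 and 0.19. Of their differences 10 of 13 and 14 of 20 were positive, against 49.5% over all genes. With 1.13% of all genes higher, the lack of calls in lists this short does not show that they stayed level. Mcm7 (2290 to 4185 and 2466 to 7279, adjusted p = 0.832), Mcm6 (3038 to 5077 and 1908 to 4525, adjusted p = 0.948) and Mcm5 (2093 to 3836 and 1813 to 4139.9, adjusted p = 0.996), subunits of the replicative helicase, overlapped between populations. So did Pcna, the sliding clamp (4214 ± 836 and 4813 ± 773, adjusted p = 0.881), and Rrm2, a subunit of ribonucleotide reductase (7921 ± 1723 and 8915 ± 2206, adjusted p = 0.987). Of 15 deoxynucleotide synthesis genes 1 fell, Nme2, a nucleoside diphosphate kinase (from 3349 ± 811 to 1992 ± 215, adjusted p = 0.0232), and the median was -0.30. Its call held in 7 of 11 leave-one-out fits (lost without pre-BI sorts 8, 9 and 10 or large pre-BII sort 10, and the highest adjusted p was 0.0866, without large pre-BII sort 10). With the floor at the noise limit, Dbf4 and Cdc45 among the licensing genes and Rpa3 at the fork were called higher.

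In the later part of the cycle more genes were called, although the median of the mitotic cyclin list, 0.16, was below those of the licensing and fork lists. Over 4 lists of mitotic genes joined, 13 of 75 tested genes rose and none fell, against 1.13% of all genes higher, and 61 of 75 differences were positive with a median of 0.80. By role, 4 of 18 mitotic kinases and checkpoint genes rose (median 0.88), 4 of 22 spindle and cytokinesis genes (0.95), 2 of 12 mitotic cyclins and destruction genes (0.16) and 3 of 24 genes of mitotic chromosomes and centromeres (0.53). The call count depended on the floor and the block. At the noise limit floor, where 3.04% of genes were higher, 10 of 16, 12 of 19, 3 of 11 and 8 of 20 tested genes rose. With sort number as a block, where 1.95% were higher, 6 of 18, 7 of 22, 3 of 12 and 5 of 24 did. None fell in either. On the scale of the fit, with levels raised to its 40th percentile floor, the list medians were positive in all 5 sort pairs. They ran from 0.58 to 1.37 for the kinases, 0.62 to 1.08 for the spindle, 0.34 to 0.68 for the cyclins and 0.47 to 0.74 for the chromosomes.

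Promoters of some of the 13 mitotic genes that rose are printed, all with matches to both elements named next, and the rest are only counted below. They are shown because the late cell cycle genes are known for a shared promoter layout, a CHR element bound by the DREAM and B-Myb complexes together with CCAAT boxes bound by NF-Y. The stretches run from 180 bases before to 20 bases after the start of the gene, 5′ to 3′ on the gene's strand, from RefSeq on GRCm38.p6. Capitals mark matches to the CHR letters TTTGAA and to CCAAT on either strand, so a match on the other strand reads TTCAAA or ATTGG, and capitals at an end belong to a match that the end cuts.
Ccnb2: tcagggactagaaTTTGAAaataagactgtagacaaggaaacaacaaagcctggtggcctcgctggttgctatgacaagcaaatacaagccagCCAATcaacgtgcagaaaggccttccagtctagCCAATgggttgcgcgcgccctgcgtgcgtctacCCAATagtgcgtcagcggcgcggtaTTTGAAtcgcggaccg
Ube2c: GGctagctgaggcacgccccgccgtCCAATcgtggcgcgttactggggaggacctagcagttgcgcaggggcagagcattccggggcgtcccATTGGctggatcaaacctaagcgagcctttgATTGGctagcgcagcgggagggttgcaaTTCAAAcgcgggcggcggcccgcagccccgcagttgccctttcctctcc
Top2a: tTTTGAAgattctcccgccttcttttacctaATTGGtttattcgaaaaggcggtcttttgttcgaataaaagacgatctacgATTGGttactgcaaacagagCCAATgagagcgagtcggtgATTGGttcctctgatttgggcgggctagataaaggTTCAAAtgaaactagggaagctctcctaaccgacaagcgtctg
Prc1: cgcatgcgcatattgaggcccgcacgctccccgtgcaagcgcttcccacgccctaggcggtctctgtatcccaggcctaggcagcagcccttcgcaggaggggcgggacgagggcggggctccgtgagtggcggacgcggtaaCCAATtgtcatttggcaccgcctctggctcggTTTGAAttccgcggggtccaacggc
Cdkn3: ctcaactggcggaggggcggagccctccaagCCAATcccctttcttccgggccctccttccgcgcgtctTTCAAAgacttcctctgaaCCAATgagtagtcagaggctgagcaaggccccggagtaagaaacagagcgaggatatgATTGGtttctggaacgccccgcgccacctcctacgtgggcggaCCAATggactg
The stretches lie at chr9:70421535-70421734 (minus strand) for Ccnb2, chr2:164769749-164769948 (plus strand) for Ube2c, chr11:99024170-99024369 (minus strand) for Top2a, chr7:80294271-80294470 (plus strand) for Prc1 and chr14:46760361-46760560 (plus strand) for Cdkn3.

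In windows of 300 bases, 250 before to 50 after a start, the 13 risen mitotic genes had 16 listed promoters. Of these, 14 (87.5%) held the CHR letters, 15 (93.8%) a CCAAT box and 13 (81.2%) both. Tubb5 lacked the CHR letters, and neither Tmpo promoter held both. The windows of the Bub3 promoters overlap, as do those of Prc1, so their matches are counted more than once. Over all 32851 promoters in the table the shares were 17.9%, 37.4% and 6.95%. The 54 promoters of 49 tested mitotic genes that were not called held them in 31.5%, 48.1% and 25.9%. The letters do not overlap each other, a match is no site, and no test was made of these shares.

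Ube2c, the ubiquitin carrier of the anaphase-promoting complex, was 82.7 to 769.7 (median 349) in pre-BI cells and 1389, 1417, 1753, 954 and 1290.1 in large pre-BII cells (3.52-fold, log2 1.82 ± 0.32 SE, adjusted p = 0.00129). Ccnb2, cyclin B2, a partner of Cdk1, was 1334 to 2168 (median 1647) and 4806, 2718, 3326, 3239 and 4416 (2.18-fold, log2 1.12 ± 0.18 SE, adjusted p = 0.00913). Cdkn3, a phosphatase that acts on cyclin-dependent kinases, was 118 to 834 (median 544) and 1812, 1382, 1889.6, 1611 and 2608 (3.75-fold, adjusted p = 0.00272). For these 3 genes no preparations overlapped and pre-BI cells already stood above the noise limit in most sorts. Cdca3, a mitotic entry factor outside the lists, rose alike, from 640.3 ± 167 to 1839.6 ± 366 (2.91-fold, adjusted p = 0.0239). Its call held in 6 of 11 leave-one-out fits (lost without pre-BI sorts 1 and 10 or large pre-BII sorts 1, 9 and 10, and the highest adjusted p was 0.0751, without large pre-BII sort 10).

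At the spindle, Prc1, which bundles midzone microtubules, measured 951 to 2143 (median 1253) and 3399, 2693, 2964, 3397 and 3586 (2.44-fold, log2 1.29 ± 0.20 SE, adjusted p = 0.00913). Racgap1, a subunit of centralspindlin, measured 989.9 to 1369.9 (median 1168) and 4564, 3321, 2830.1, 5157 and 3680.3 (3.32-fold, adjusted p = 0.0106). Neither overlapped between populations. Kifc1, a minus-end kinesin (2.71-fold, adjusted p = 0.0358), and Tubb5, a beta tubulin (1.93-fold, adjusted p = 0.0454), rose as well. Kifc1 was 1364, 3424, 1347, 913 and 1390.4 in large pre-BII cells against 245 to 979 (median 610.2), with sort 2 far above the rest.

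At the chromosomes, Top2a, the topoisomerase that untangles sister chromatids, rose from 540 to 1829 (median 1073) to 2181, 2626, 3680.3, 5606 and 2370.5 (2.87-fold, log2 1.52 ± 0.35 SE, adjusted p = 0.00808). A second Top2a probe set, on the b set, averaged 1607 and 4237 without passing (adjusted p = 0.662). Cenpa, the centromeric histone (from 2168 ± 641 to 4234 ± 828, adjusted p = 0.0181), and Tmpo, a nuclear lamina protein (from 1546 ± 401 to 3333 ± 768, adjusted p = 0.0376), rose about alike. Of the kinases and checkpoint genes, Ttk, the spindle checkpoint kinase Mps1, rose from under the limit in most pre-BI preparations to 781, 566, 889, 324 and 395 (2.03-fold, adjusted p = 0.00275). Bub3 rose from 2855 ± 669 to 5819 ± 1169 (adjusted p = 0.0194). Aurka, Aurora kinase A, spanned 534 to 3458 (median 808) in pre-BI cells and was 2722, 2066, 6891, 3381 and 3114 in large pre-BII cells (3.11-fold, adjusted p = 0.0373), so the populations overlapped.

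Several of these calls rested on few preparations. In leave-one-out fits the call was kept, of 11, for Aurka in 3 (kept only without pre-BI sorts 8 and 9 or large pre-BII sort 2, and the highest adjusted p was 0.158, without large pre-BII sort 8), Kifc1 in 4 (kept only without pre-BI sorts 2, 3 and 8 or large pre-BII sort 9, and the highest adjusted p was 0.161, without large pre-BII sort 2), Tubb5 in 2 (kept only without pre-BI sorts 8 and 9, and the highest adjusted p was 0.133, without pre-BI sort 2), Tmpo in 2 (kept only without pre-BI sorts 8 and 9, and the highest adjusted p was 0.133, without large pre-BII sort 8), Bub3 in 7 (lost without pre-BI sorts 1 and 3 or large pre-BII sorts 8 and 10, and the highest adjusted p was 0.0768, without large pre-BII sort 8) and Cenpa in 7 (lost without pre-BI sorts 1 and 10 or large pre-BII sorts 2 and 8, and the highest adjusted p was 0.0731, without large pre-BII sort 8). All 6 passed with the floor at the noise limit. Other probe sets of 3 of these genes were higher without passing: Aurka 2.43-fold (adjusted p = 0.12), Tubb5 1.79-fold (adjusted p = 0.167) and Bub3 1.66-fold (adjusted p = 0.379). Cdk1, the mitotic kinase itself, did not overlap between populations (4534 to 7612 and 7896 to 10949) yet did not pass (adjusted p = 0.177), nor did Ccna2 (1478 to 2676 and 3005 to 5449, adjusted p = 0.264), which did not overlap either and rose at the noise limit floor, or Aurkb (1704 to 4013 and 3055 to 7185, adjusted p = 0.656).

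Histone genes leaned the same way as mitosis: 12 of 13 differences were positive (49.5% over all genes), 2 rose (1.13% over all genes), and the median was 0.60. H2ax, the variant phosphorylated at DNA breaks, rose from 1764 to 3906 (median 3085) to 6090.1, 10683, 4225, 9136 and 6820.4 (2.34-fold, adjusted p = 0.00507) without overlap, and the other is Cenpa. H3f3a (6171 ± 1283 and 8447 ± 1075, adjusted p = 0.162) and H2az1 (6298 ± 2670.3 and 9047 ± 1423, adjusted p = 0.556) did not pass. None of 27 genes of DNA and histone methylation and remodelling was called, with a median of 0.28. Chd4, the NuRD helicase, came closest among the named ones, at 6539 ± 1559 and 4325 ± 559 (adjusted p = 0.077), and fell with sort number as a block and at the noise limit floor, and Arid1a rose in both.

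**Figure D3:**
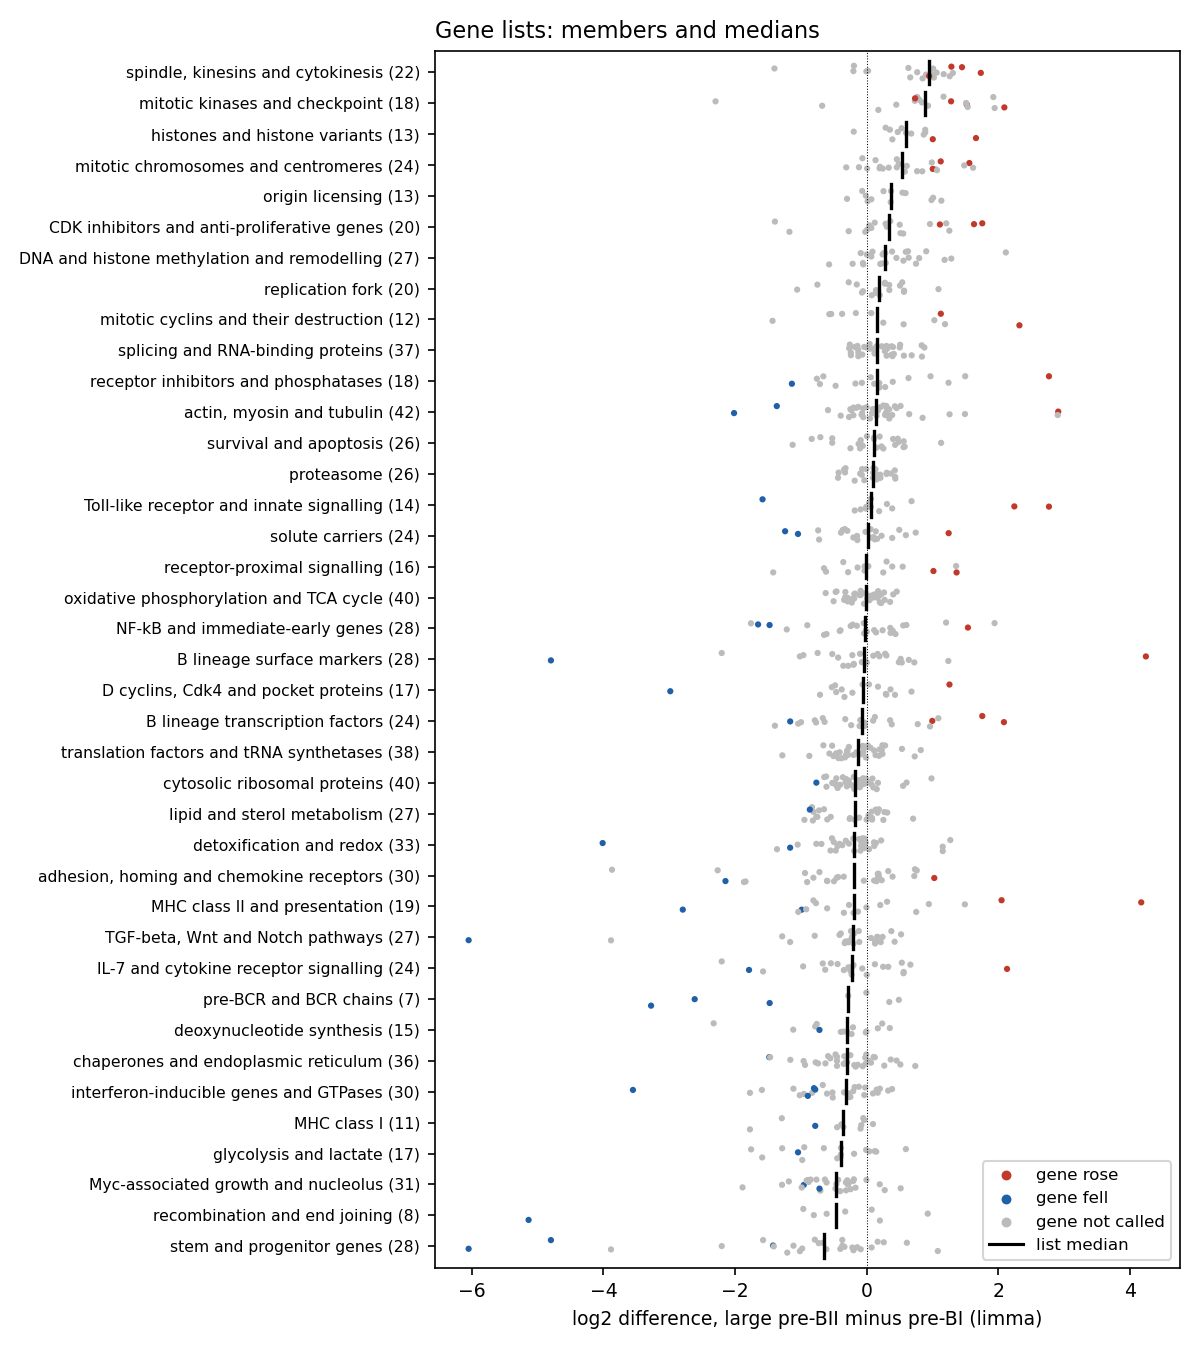
Members of the 39 gene lists (rows, with the number tested in brackets), each at the limma log2 difference of its brightest tested probe set on the x axis, large pre-BII minus pre-BI, with a bar at each list's median. Red members rose and blue ones fell by any of their probe sets, and the spindle list and the list of mitotic kinases stand at the top, with medians of 0.95 and 0.88 (the other mitotic lists have 0.53 and 0.16), and the stem and progenitor list at the bottom, with -0.64.

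In the list of Myc-associated growth and nucleolar genes, 28 of 31 differences were negative, 2 fell and none rose, and the median was -0.46, where 1.73% of all genes fell. On the scale of the fit, with levels raised to its 40th percentile floor, the median was negative in all 5 sort pairs, from -0.84 to -0.34. Fbl, fibrillarin, the methyltransferase of ribosomal RNA, fell from 1488 to 2975 (median 1652) to 979.6, 1126, 945, 1084 and 685 (1.94-fold, adjusted p = 0.0366) without overlap, and the other is Nme2. The Fbl call held in 3 of 11 leave-one-out fits (kept only without pre-BI sorts 2 and 3 or large pre-BII sort 2, and the highest adjusted p was 0.138, without large pre-BII sort 10). With sort number as a block 6 of the 31 fell (2.96% of all genes were lower), adding Nop10, Rrs1, Gnl3 and Apex1. Nop10, a core protein of H/ACA particles, was 4042 ± 867 and 2428 ± 781 (adjusted p = 0.0878).

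Of 40 cytosolic ribosomal protein genes 1 was called, and the median was -0.17. Rpl12 fell from 7381 ± 1052 to 4648 ± 1611 (adjusted p = 0.0476), but large pre-BII sort 9 alone was far under the others, and the call held in 4 of 11 leave-one-out fits (kept only without pre-BI sort 8 or large pre-BII sorts 1, 2 and 10, and the highest adjusted p was 0.19, without large pre-BII sort 9). With the block 5 of 40 fell, against 2.96% of all genes. Rpl23 (17872 ± 1759.5 and 18836 ± 2279.7), Rplp0 (16655 ± 1622 and 16262 ± 846) and Rps3 (14839 ± 2179 and 14103 ± 1719) had log2 differences of 0.07, -0.03 and -0.07. None of 38 translation factors and tRNA synthetases was called (median -0.14).

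Energy genes gave 1 call, a fall (1.73% of all genes fell). Ldha, lactate dehydrogenase A, fell from 3326 to 8736 (median 6092) to 2346, 3845, 3214, 3005 and 2234 (2.06-fold, log2 -1.04 ± 0.24 SE, adjusted p = 0.00913), 1 of 17 glycolysis genes, with 13 of 17 negative and a median of -0.40. A second Ldha probe set averaged 3551 and 1659 without passing (adjusted p = 0.65). Gapdh, a glycolytic dehydrogenase, was 5733 to 12845 and 4490.1 to 6948 (adjusted p = 0.132) and fell with the block. None of 40 genes of oxidative phosphorylation and the TCA cycle was called and their median was -0.01, with 20 positive and 20 negative. None of 26 proteasome genes (0.10) and none of 37 splicing genes (0.15) was called. The splicing list still leaned higher, with a positive median in all 5 sort pairs, from 0.13 to 0.23. Its mean log2 levels, raised to the noise limit, did not overlap (10.18 to 10.28 in pre-BI and 10.38 to 10.51 in large pre-BII preparations).

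Chaperones and endoplasmic reticulum genes were lower in 27 of 36 cases, with a median of -0.31. Hsph1, a cochaperone of Hsp70, fell from 1173 ± 177 to 513 ± 275 (2.31-fold, adjusted p = 0.0264), and its call held in 7 of 11 leave-one-out fits (lost without pre-BI sorts 1 and 10 or large pre-BII sorts 1 and 9, and the highest adjusted p was 0.113, without large pre-BII sort 9). With the block, where 2.96% of all genes fell, 7 of 36 did, Hspa5, Hspd1, Hspe1, Cct6a, Pdia3 and Fkbp4 beside it. Hspa8, the constitutive Hsp70 (9690.1 ± 1373 and 7703 ± 1815, adjusted p = 0.511), and Ppia, cyclophilin A (12044 ± 1419 and 11925 ± 1644, adjusted p = 0.997), did not pass.

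**Figure D4:**
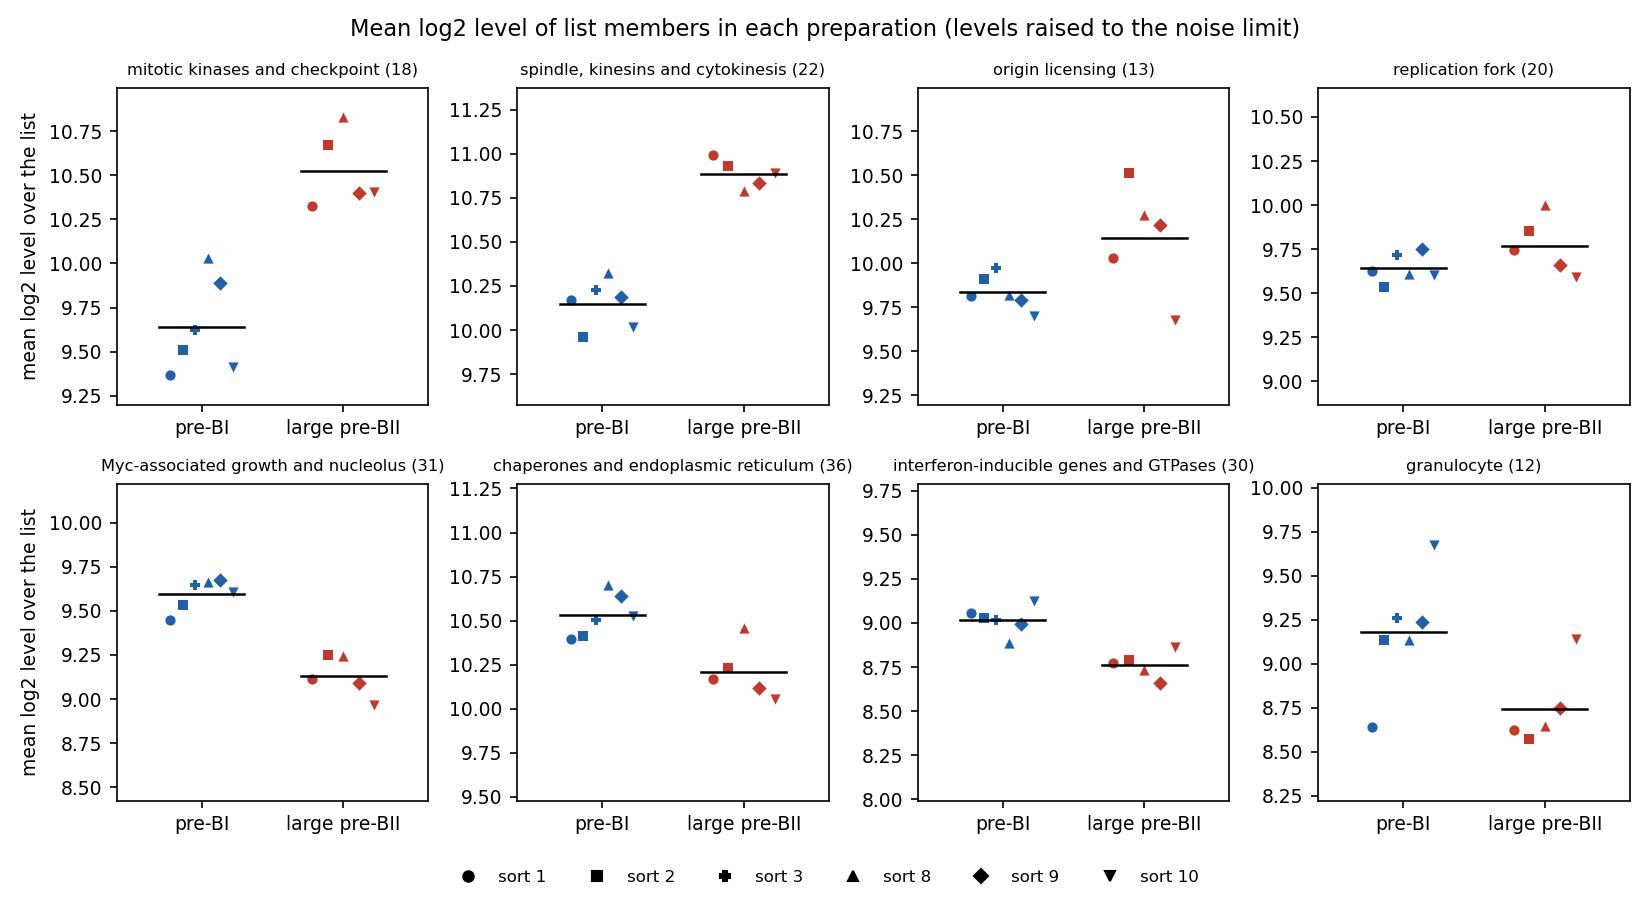
Mean log2 level of the tested members of 8 lists in each preparation, with levels raised to the noise limit (y axis, same span in every panel), by sort number, and a line at the population mean. Preparations do not overlap for mitotic kinases (9.37 to 10.03 against 10.32 to 10.83) and the spindle (9.96 to 10.32 against 10.79 to 10.99). Downwards, they do not overlap for the nucleolar list (9.45 to 9.68 against 8.97 to 9.25) and, narrowly, the interferon list (8.89 to 9.12 against 8.66 to 8.87). The licensing, replication fork, chaperone and granulocyte lists overlap. Lists outside the figure do not overlap either, among them the stem and progenitor, CDK inhibitor, splicing, detoxification, mitotic cyclin and mitotic chromosome lists. The separation is therefore not particular to the lists shown.

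Interferon-inducible genes and GTPases leaned lower: 4 of 30 fell (1.73% of all genes did) and none rose. Of the 30 differences 24 were negative (49.5% of all genes had a positive one), and the median was -0.31 (-0.08 on levels raised to the limit). Gbp7, a guanylate-binding GTPase, measured 1065 to 3083 (median 1798) in pre-BI cells and 204, 204, 281, 31.3 and 58.6 in large pre-BII cells (7.07-fold, log2 -2.82 ± 0.21 SE, adjusted p = 8.92e-08). Only 1 large pre-BII preparation exceeded the limit and none came near the pre-BI range. The other 3 fell by less than 2-fold: Ifi27 from 5379.8 ± 772 to 2939.8 ± 749 (adjusted p = 0.00445), Tapbp, tapasin of class I loading, from 5138 ± 1232 to 2948 ± 459.7 (adjusted p = 0.00741), and Psmb8, an immunoproteasome subunit, from 3045 ± 678 to 1764 ± 492 (adjusted p = 0.032). The Psmb8 call held in 4 of 11 leave-one-out fits (kept only without pre-BI sorts 2, 3 and 8 or large pre-BII sort 10, and the highest adjusted p was 0.132, without large pre-BII sort 9), and a second Psmb8 probe set averaged 2265 and 1777 without passing (adjusted p = 0.565). Psmb9, the neighbouring immunoproteasome subunit, was 1676 ± 282 and 2194 ± 402 (adjusted p = 0.668), with the higher mean in large pre-BII cells.

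In MHC class II presentation 2 of 19 rose and 2 fell (1.13% and 1.73% over all genes). Both rises were class II chains and both falls lysosomal proteases. H2-Aa, a class II alpha chain, rose from 208 to 2296 (median 593) to 2390.1, 3153, 2503, 1765 and 2896 (4.01-fold, log2 2.00 ± 0.49 SE, adjusted p = 0.000207), and pre-BI sort 10 was the one pre-BI preparation inside the large pre-BII range. Of 4 other H2-Aa probe sets, all higher in large pre-BII cells, 1 passed (1.71-fold, adjusted p = 0.00913), and 3 did not, at 1.43- to 1.55-fold (adjusted p = 0.335, 0.343 and 0.833). H2-Ab1, its beta chain partner, rose from -90.0 to 518 to 679, 385, 1273, 1472 and 1176 (2.5-fold, adjusted p = 0.0254). Its call held in 5 of 11 leave-one-out fits (kept only without pre-BI sorts 8, 9 and 10 or large pre-BII sorts 1 and 2, and the highest adjusted p was 0.0817, without pre-BI sort 3). Ctss, cathepsin S, a lysosomal protease that trims invariant chain, fell from 2329 ± 452 to 1187 ± 297 (1.98-fold, adjusted p = 0.0033). Ctsl, another lysosomal protease, was called lower too (adjusted p = 0.0201), at levels too near the limit for a fold, and its call held in 6 of 11 leave-one-out fits (lost without pre-BI sorts 1 and 10 or large pre-BII sorts 2, 8 and 10, and the highest adjusted p was 0.0862, without large pre-BII sort 2). Cd74, the invariant chain, was 323 to 2189.7 and 984 to 1832 (adjusted p = 0.417). Mature B cell markers, of which H2-Aa and H2-Ab1 are members, summed to 4415 to 8626 in pre-BI and 7978 to 8453 in large pre-BII preparations, and their part in these rises was not tested. In class I, H2-K1 (7823 ± 1210.4 and 7564 ± 1394, adjusted p = 0.987) and B2m (5914 ± 1744 and 5567 ± 963, adjusted p = 0.992) did not pass, and Tapbp was the 1 of 11 called. With sort number as a block H2-K1 fell by at least 1 of its probe sets.

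Nfkbia, the IkB-alpha inhibitor that NF-kB itself induces, rose from 338 to 579 (median 431) to 1321, 1570.1, 1127, 1176 and 1912 (3.3-fold, log2 1.72 ± 0.18 SE, adjusted p = 2.51e-05) without overlap. It was the 1 of 28 NF-kB and immediate-early genes that rose, and 2 fell (1.13% and 1.73% over all genes). The falls were at dim levels: Ltb, lymphotoxin beta, at least 1.34-fold (adjusted p = 0.0402), and Ier2, an immediate-early gene, 1.6-fold (adjusted p = 0.0168). At the noise limit floor neither was called (adjusted p = 0.659 and 0.0638), and in leave-one-out fits the calls held, of 11, for Ltb in 2 (kept only without pre-BI sorts 2 and 8, and the highest adjusted p was 0.122, without pre-BI sort 3) and Ier2 in 9 (lost without large pre-BII sorts 1 and 10, and the highest adjusted p was 0.073, without large pre-BII sort 1). Jund (2281 ± 1095 and 3288 ± 932, adjusted p = 0.353) and Zfp36 (651 ± 332 and 808 ± 251, adjusted p = 0.805) did not pass, though Jund rose by at least 1 probe set with sort number as a block. None of 26 survival and apoptosis genes was called (median 0.11), Mcl1 among them (1359 ± 544 and 1172 ± 167, adjusted p = 0.987).

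Innate signalling genes gave 2 rises and 1 fall among 14 (1.13% and 1.73% over all genes). Tirap, the adaptor that recruits MyD88 to Toll-like receptors, rose from -143 to 320.4, with 1 preparation over the limit, to 512, 532, 769, 876 and 538 (2.4-fold, adjusted p = 3.32e-05), and Fcrla is the other. Fcer1g, the signalling gamma chain of Fc receptors, fell from 1658 to 6344 (median 3173) to 839.6, 973, 851, 1190.4 and 1743 (3-fold, log2 -1.58 ± 0.32 SE, adjusted p = 0.00036). Among granulocyte markers Ngp (from 4187 ± 1634 to 1745 ± 550.1, adjusted p = 0.0479) and Lyz2 (from 5503 ± 1814 to 3033 ± 1404, adjusted p = 0.0429) fell too. They were 2 of 12 tested (1.73% of all genes fell), and the list's median was -0.98 (-0.32 on levels raised to the limit). Of its differences 3 were positive and 9 negative. Of 11 leave-one-out fits these calls held for Ngp in 2 (kept only without pre-BI sort 1 or large pre-BII sort 10, and the highest adjusted p was 0.163, without large pre-BII sort 1) and Lyz2 in 4 (kept only without pre-BI sorts 1, 2 and 9 or large pre-BII sort 10, and the highest adjusted p was 0.166, without large pre-BII sort 2). Summed granulocyte levels were 6512 to 20927 in pre-BI and 4424 to 11351 in large pre-BII preparations, and 6 of 14 markers, Mpo, Prtn3, Ctsg, Ltf, Mmp9 and Csf3r, were never over the limit. Of 12 tested monocyte, macrophage and dendritic cell markers Mpeg1 (from 1160.4 ± 552 to 278 ± 92.4, adjusted p = 0.0469) and Lyz2 fell (1.73% of all genes did). The Mpeg1 call held in 1 of 11 leave-one-out fits (kept only without pre-BI sort 9, and the highest adjusted p was 0.143, without large pre-BII sort 10). Another Mpeg1 probe set, with both means under the limit (201 and 239), did not pass (adjusted p = 1). Of the 12 differences in this list 5 were positive and 7 negative, with a median of -0.52 (0 on levels raised to the limit). The summed levels of the list were 8504 to 16533 and 4303 to 10313, and Csf1r, Adgre1 and Fcgr1 were never over the limit. The part of such cells in the falls of Fcer1g, Ctss and other genes shared with them was not tested. No erythroid, mast cell or stromal marker was called, although Car2, an erythroid marker, fell with sort number as a block (means of 1527 and 682, adjusted p = 0.165 without it), and Hba-a1 was 10499 ± 2426 and 10465 ± 1932.

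At the surface, Cd2, a ligand-binding adhesion receptor that appears in pre-B cells, was under the limit in all 6 pre-BI preparations and over it in 2 of 5 large pre-BII preparations (746, 167, 116, 226 and 619, adjusted p = 1.3e-05). It was not called at the noise limit floor (adjusted p = 0.733). Cd2 and Thy1 were the only calls among 28 surface markers, by any of their probe sets. In this list and in the adhesion list 1 gene rose and 1 fell (1.13% and 1.73% over all genes). Cd24a (12316 ± 1246 and 13140.3 ± 521, adjusted p = 0.931) and Cd47 (5959 ± 1973 and 5463 ± 1711, adjusted p = 0.982) did not pass. Among 30 adhesion and homing genes Icam2, an integrin ligand, rose from 262 to 732 (median 636) to 1248, 926, 1091, 1166 and 1273 (1.97-fold, adjusted p = 0.00698). Evl, an Ena/VASP protein that extends actin filaments, fell from 789 to 2420.3 (median 1765) to 1052, 357, 365, 11.4 and 479 (3.58-fold, log2 -1.84 ± 0.44 SE, adjusted p = 0.00053), with large pre-BII sort 1 inside the pre-BI range.

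The cytoskeleton list, with 42 tested, held Myl4 as its 1 rise and 2 falls (1.13% and 1.73% over all genes). Lcp1, L-plastin, an actin-bundling protein of leukocytes, fell from 4699 to 6344 (median 5544) to 1655, 2850.3, 3209, 2270 and 1258 (2.58-fold, log2 -1.37 ± 0.26 SE, adjusted p = 0.000119). Tuba4a, an alpha tubulin, fell from 1721 to 4885 (median 3636) to 779, 936, 1255, 538 and 880.4 (4.04-fold, log2 -2.02 ± 0.29 SE, adjusted p = 0.000445), opposite to Tubb5. Neither overlapped between populations. The main actins did not pass, Actb at 15636 ± 763 and 14128 ± 2057 (adjusted p = 0.867) and Actg1 at 11680.5 ± 1717 and 11339 ± 2374 (adjusted p = 0.986).

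Mgst2, a microsomal glutathione transferase that can also make leukotriene C4, measured 2132 to 6003 (median 3753) in pre-BI cells and 289, 148, 470.4, -14.0 and 262 in large pre-BII cells (11.7-fold, log2 -3.55 ± 0.28 SE, adjusted p = 4.06e-07), and no preparations came near each other. Cat, catalase, fell from 2582 ± 391 to 1192 ± 354 (2.24-fold, adjusted p = 0.00951), and its call was lost only without large pre-BII sort 9 (adjusted p = 0.0538). Mgst2 and Cat were the calls among 33 detoxification and redox genes (1.73% of all genes fell), of which 25 were negative (median -0.19). Slc25a20, the mitochondrial carnitine carrier, fell from 606 ± 77.2 to 259 ± 50.4 (adjusted p = 0.00957), as did Slc25a1, the citrate carrier (from 4362 ± 1010.5 to 2129 ± 570.2, adjusted p = 0.0441), while Slc11a2, the iron transporter DMT1, rose from 374 ± 89.7 to 887 ± 207 (adjusted p = 0.00957). Another Slc11a2 probe set, with both means under the limit (158 and 39.3), did not pass (adjusted p = 0.842). Abca1, the cholesterol exporter, fell from 522 ± 137 to 281 ± 45.2 (adjusted p = 0.0284). In leave-one-out fits the calls held, of 11, for Slc25a1 in 2 (kept only without pre-BI sort 8 or large pre-BII sort 9, and the highest adjusted p was 0.158, without large pre-BII sort 8) and Abca1 in 5 (kept only without pre-BI sorts 1, 2 and 9 or large pre-BII sorts 8 and 9, and the highest adjusted p was 0.0862, without large pre-BII sort 2). Of 27 genes of TGF-beta, Wnt and Notch pathways, Eng was the 1 called, and Smad4 (434 ± 105 and 349.6 ± 109.6) did not pass (adjusted p = 0.936).

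The remaining leading genes belonged to no list. Among the falls, Emp1, a small membrane protein, measured 1913 to 4598 (median 3005) and 311, 443, 370.4, 836 and 245 (7.47-fold, log2 -2.90 ± 0.34 SE, adjusted p = 4.02e-06). Frmd6, a FERM-domain protein upstream of the Hippo kinases, measured 849 to 1829 (median 1398) in pre-BI cells and was under the limit in every large pre-BII preparation (at least 5.16-fold, adjusted p = 2.28e-09), and its unadjusted p was the smallest of the comparison. Anxa1, annexin A1, went from 1957 to 3757 (median 2553) to 470.1, 479.9, 676, 769 and 396 (4.75-fold, adjusted p = 0.000181). These genes showed no overlap, and the same holds for the falls that follow, since the rule that named them asked for it.

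Tiam1, an exchange factor that activates Rac, fell from 1765 ± 418 to 435 ± 176 (4.11-fold, adjusted p = 0.00286). Bin1, a membrane-bending adaptor, fell from 2180 ± 882 to 419.6 ± 328 (4.67-fold, adjusted p = 0.00281), while its other probe set averaged 516 and 392.2 (1.14-fold, adjusted p = 0.858). Stat4, a signal transducer of IL-12, was 732 to 1119.7 (median 897) in pre-BI cells and under the limit in all large pre-BII preparations (at least 3.62-fold, adjusted p = 6.38e-07). Fxyd5, a regulator of the sodium pump, fell 3.56-fold (adjusted p = 5.43e-05), and 1 large pre-BII preparation was over the limit.

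Among the rises, Psme4, the proteasome activator PA200, measured 515 to 1261 (median 891) and 2743, 3913, 2266, 2679.8 and 3819 (3.62-fold, log2 1.86 ± 0.25 SE, adjusted p = 0.00139). Emid1, an EMI-domain protein, measured 178 to 443 (median 394) and 1397, 993, 1467, 1631 and 1382 (3.53-fold, adjusted p = 0.000181). Apobec1, a cytidine deaminase that edits RNA, measured 347 to 1347 (median 975) and 2942, 2722, 2046, 2547 and 3356 (3.2-fold, adjusted p = 0.000381). Lmo4, a LIM-only cofactor, rose 2.82-fold (adjusted p = 0.0447) from -135 to 442 to 710.1 to 1336, with the call kept in 2 of 11 leave-one-out fits (kept only without pre-BI sorts 8 and 9, and the highest adjusted p was 0.136, without pre-BI sort 1). Of the 26 proteasome subunits, which Psme4 does not belong to, none was called.

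Levels of these genes in the later populations, given as means without a test, fell into several courses. The mitotic genes were highest in large pre-BII cells: Prc1, at 1367 ± 458 and 3208 ± 367, was under the noise limit in small pre-BII cells, and Ccnb2 averaged 708. Cdkn2d shared that peak, at 648 in small pre-BII cells, close to its pre-BI mean of 645. Irf4, Klf2, Blk, Syk and Nfkbia, in contrast, were higher still in small pre-BII cells, at 4967, 4531, 9241, 11970.5 and 2679.8.

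The fallen genes divided likewise. The means of Dntt, Igll1 and Tiam1 were under the noise limit in small pre-BII cells, and that of Dntt was so already in large pre-BII cells, so no further fall can be read. Vpreb1 and Emp1 averaged 556 and 364 in small pre-BII cells, after 784 ± 281 and 441 ± 233. Others were low in large pre-BII cells and high later. Evl averaged 3252 in small pre-BII and 4645 in mature cells, Lcp1 8387 in immature and 10153 in mature cells, and Irf8 3238 and 2604. Ccnd2 averaged 2138 in immature cells and Stat4 1289 in mature cells, both after means under the noise limit in large and small pre-BII cells. Iglc1 averaged 5409.7 in small pre-BII cells, after its fall in large pre-BII cells.

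**Figure D5:**
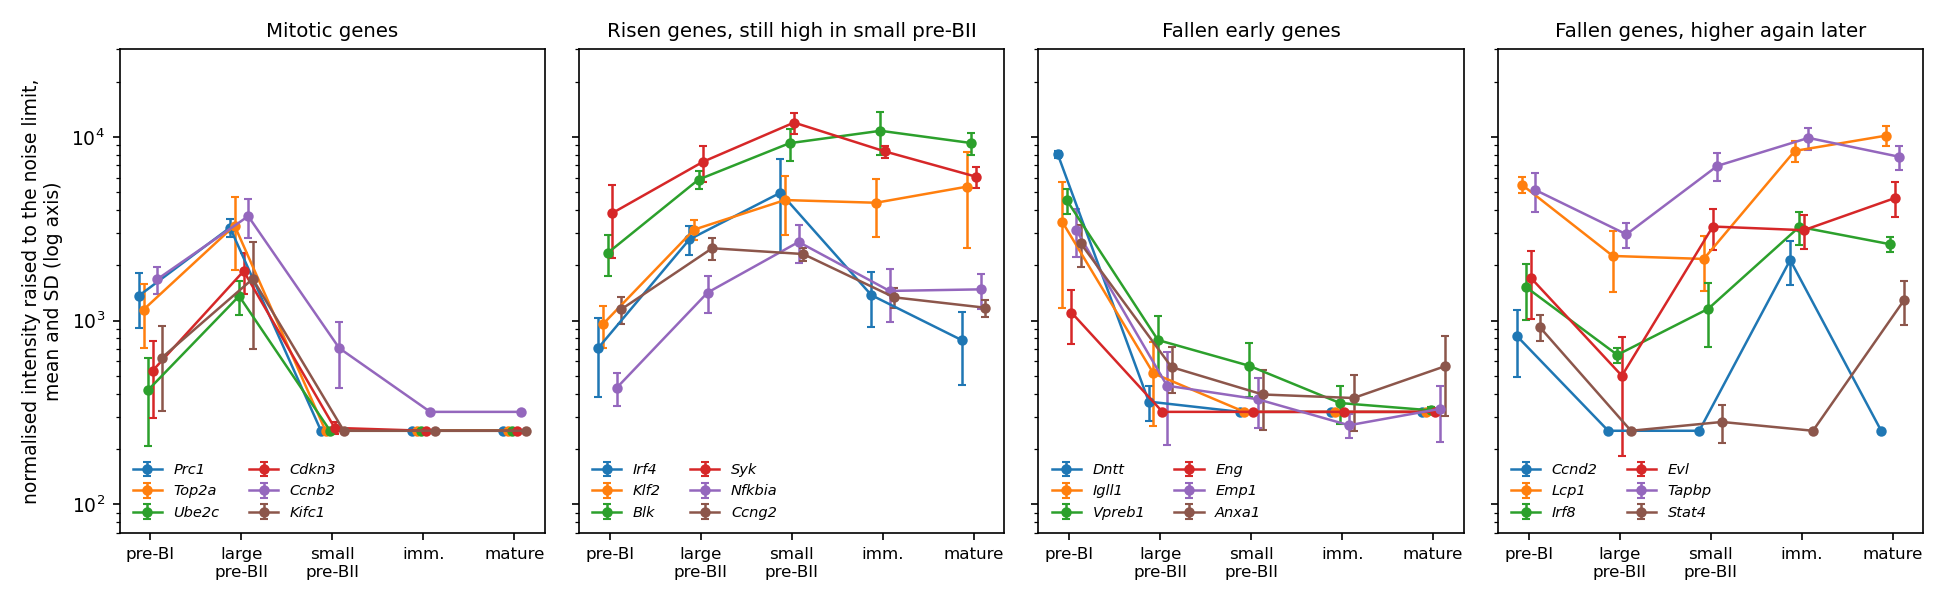
Mean and SD (n = 6 for pre-BI, 5 for each other population) of normalised intensity raised to the noise limit, log axis, for 24 genes in the 5 populations in developmental order. From left to right the panels show genes highest in large pre-BII cells, risen genes that stay high in small pre-BII cells, early genes that fell after the pre-BI stage, and fallen genes that are higher again in a later population. In the third panel Igll1, Vpreb1, Emp1 and Anxa1 still averaged over the noise limit in large pre-BII cells. No test was made between the later populations.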

How the data were processed

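For each array set the authors deposited a table of linear intensities, negative values included. The sources used here do not say how arrays were scanned, summarised or scaled. Groups came from sample titles. The large pre-BII array titled 1_2 was averaged with sort 1 (r = 0.913 between them, against 0.860 to 0.928 among other large pre-BII arrays). A mature B array deposited under 2 titles on the first set was used once. Trimmed array means differed 5.60-fold on the first and 2.30-fold on the b set, so each table was quantile-normalised with controls left out.

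Intensities under the 40th percentile (87.6 and 6.89) were raised to it and log2 taken. Probe sets above it in at least 5 of 26 preparations were tested, 5019 and 5210, in 1 fit per set with all 5 populations (limma 3.58.1, R 4.3.3, trend), and adjusted over both sets at a threshold of 0.05. The procedure was also run on simulated data, but the outcome is not given here and nothing is drawn from that run. The noise limit is 2 robust standard deviations of the negative values. Without controls there were 13069 probe sets, of which 7542 carried a single gene symbol, 224 several and 5303 none.

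The comparison, the gene lists and the rules were chosen with earlier results of these data known. Named genes are the sort gates, the stage markers, the 15 largest rises and falls (1 symbol, at least 2-fold, no overlap), and from each list up to 6 members that passed and 3 brightest that did not. A gene is given by its called probe set of smallest p, otherwise by its brightest. Of the called genes, 32 had 39 other tested probe sets, 33 of them in the same direction. Sort numbers pair the populations: deviations of equal-numbered preparations correlated at 0.114 to 0.297 in all 5 pairs (unequal numbers -0.273 to 0.266, median -0.053, and 3 of 5 pairs matched their own number best), although the labels do not say what a number shares. Other scalings, floors, filters, blocks, sample choices and leaving out each preparation were tried.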

Additional observations from a re-analysis of the deposited data

Results flagged for a closer look

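Among 156 population groups of the named genes, 6 held 1 preparation that stood apart from the rest by Dixon's criterion, which chance gives for about 1 in 20 groups. Klf2 read 483 in pre-BI sort 9, where the other pre-BI preparations read 901 to 1150. Aurka read 6891 in large pre-BII sort 8, where the others read 2066 to 3381. Kifc1 read 3424.5 in large pre-BII sort 2, where the others read 913 to 1390.4. Rpl12 read 1794 in large pre-BII sort 9, where the others read 4993 to 5577. H2-Aa read 2296 in pre-BI sort 10, where the others read 208 to 899. Lyz2 read 5467 in large pre-BII sort 10, where the others read 1882 to 2841. The flagged preparations differ from gene to gene.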

How the results depend on the processing

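None of the 144 called genes reversed its direction in a setting where it was tested, and genes that did not pass were not followed for this. Of the called probe sets 172 of 174 tested at the noise limit floor (173 with the block) and all in the other settings kept their sign. Against 191 called probe sets (89 higher, 102 lower), values as deposited gave 48 (23 and 25), all 48 among the 191. The floor at the 25th percentile gave 58 higher, at the 60th percentile 289 (142 higher), and at the noise limit 146 higher. Only sorts 1 to 3 gave 8 (6 and 2) and only sorts 8 to 11 gave 78 (32 and 46), with fewer samples, and a term for that split gave 217. Pairing by sort number as a replicate block gave 327 (147 and 180), and with the floor at the noise limit 462 (229 and 233). This last setting, both sets in 1 fit (198), and the noise limit floor with only the 11 preparations (222, of which 122 higher) were chosen after seeing the data. Leaving out 1 preparation gave 143 to 185 in all, 61 to 89 higher and 78 to 96 lower. Other scalings gave 172 to 198, and a fit of only the 11 preparations gave 170, of which 120 were among the 191. Of 136 called genes that could be tested at the noise limit floor 126 passed there. The cause of these differences was not tested. Signal over background limits most of the b set, where 20.1% of values exceeded the noise limit.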

Other observations

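Genes outside the lists and the naming rule that changed are given here, chosen after their values were seen, as means ± SD (n = 6 and 5). Ada, adenosine deaminase, fell from 927 ± 294 to 156 ± 111, adjusted p = 3.3e-05 (3.32-fold), as did Pnp, purine nucleoside phosphorylase, from 7597 ± 2229 to 2486 ± 428, adjusted p = 8.87e-06. Phgdh, the first enzyme of serine synthesis, fell from 1921 ± 527 to 760.4 ± 303, adjusted p = 0.0111, and Pck2, the mitochondrial PEP carboxykinase, from 779.9 ± 89.1 to 256 ± 142, adjusted p = 0.00703. Mif, a cytokine, fell from 6406 ± 1982 to 2871 ± 909, adjusted p = 0.0106, while another Mif probe set averaged 305.5 and 351 without passing (1.06-fold, adjusted p = 0.953). In leave-one-out fits 2 of these calls were lost, Phgdh without large pre-BII sort 9 (adjusted p = 0.0662) and Mif without large pre-BII sort 10 (adjusted p = 0.0574). Crip1, a LIM-domain protein, fell by both of its called probe sets, on the first set from 2922 ± 1514 to 1103 ± 356, adjusted p = 0.00499.

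Among the rises, 3 genes belong to the secretory pathway: Herpud1, a membrane protein of endoplasmic reticulum stress, from 2207 ± 385 to 4126 ± 857, adjusted p = 0.0106, Erp29, a lumenal chaperone, from 1044 ± 206 to 2193 ± 436, adjusted p = 0.00913, and Sec11c, a signal peptidase subunit, from 1661 ± 323 to 3069.7 ± 569.8, adjusted p = 0.00568. They rose while 27 of 36 members of the chaperone and endoplasmic reticulum list had negative differences. The Herpud1 call was lost without large pre-BII sort 1 (adjusted p = 0.0552). Polm, DNA polymerase mu, a relative of the terminal transferase encoded by Dntt, rose from 1183 ± 553 to 2902 ± 920, adjusted p = 0.00587 (2.57-fold), as Dntt fell. Pafah1b3, a subunit of a platelet-activating factor hydrolase, rose from 4078 ± 607 to 9499 ± 509, adjusted p = 1.32e-06 (2.35-fold).

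Of the 191 called probe sets, 34 had no symbol and 5 had several, so they could not be named. Some unnamed ones were bright. V00802_f_at averaged 977 and 4405 in the pre-BI and large pre-BII populations and 14918, 16940 and 17941 in the 3 later ones, and ET62056_f_at 324 and 1356, then 7730, 10529.7 and 10212 (adjusted p = 5.61e-07 and 4.42e-07 for large pre-BII against pre-BI). Both stand among the smallest p-values of the comparison.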
